A study of Mus musculus with 2 samples.

Results

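The 35 genes described here encode the proteins that form, limit and dissolve blood clots: 18 procoagulant genes, 8 anticoagulant genes, 5 fibrinolytic genes with their inhibitors, and 4 genes for processing and secretion. They were listed by function, and their rows were found by Ensembl gene identifier among 43346 mouse gene rows. Levels were obtained for 34 of the 35. The exception was Klkb1, plasma prekallikrein, whose row is described with the contact factors.

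The series holds total RNA-seq of the mouse liver at embryonic day 14.5, from the B6NCrl strain, in 1 group of 2 biological replicates with no added treatment or allele. Per the labels, each library came from a single liver, although the same labels give the sex as pooled; RNA longer than 200 nucleotides was used at 10 ng, with ERCC spike-ins. Replicate 1 held 37059776 estimated reads on mouse genes and replicate 2 held 26908926. With no second group there was no test between conditions, so each value below is given per liver, and differences between the livers are differences between 2 samples of 1 group.

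The liver makes most plasma clotting proteins. In the classical scheme, tissue factor with factor VII, or the contact factors XII and XI with prekallikrein and kininogen, lead to activation of factor X, which with factor V turns prothrombin into thrombin. Thrombin cuts fibrinogen into fibrin, antithrombin and the protein C pathway hold the cascade back, and plasmin dissolves the clot. Several of the proteases need a carboxylation of glutamate that depends on vitamin K. The liver at this age is also a site of blood cell formation, so a bulk library holds RNA of erythroid cells, megakaryocytes, endothelium and macrophages beside that of hepatoblasts; fewer cells of a type and less RNA per cell cannot be told apart in it. Of 10 hepatoblast and hepatocyte markers, all 10 were at 1 TPM or more in both livers, led by Afp at 6417 and 6856 TPM.

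Most of the clotting genes were detected in both livers. TPM is a length-scaled share of all transcripts in a library. At 1 TPM or more in both livers there were 29 of the 34 measured members, against 26.2% of mouse gene rows. The 5 below that level in at least one liver were F3, Plau, Procr, Thbd and F9. The members ranged from F3 at a mean of 0.315 TPM to Kng1 at a mean of 461 TPM. The median member stood at 23.9 TPM in replicate 1 and 25.7 in replicate 2, where the median gene detected in both livers stood at 9.20 and 10.1 TPM. Together the members took 0.366% and 0.360% of mouse TPM, or 0.363% ± 0.004 (SD, n = 2). Kng1, Serpinc1, Fga, Fgg and Fgb alone held 60.5% and 56.3% of that. When the members were put in order of mean TPM, 14 of the 33 neighbouring pairs had overlapping ranges over the 2 livers, so the order within those pairs is not resolved.

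**Figure D1:**
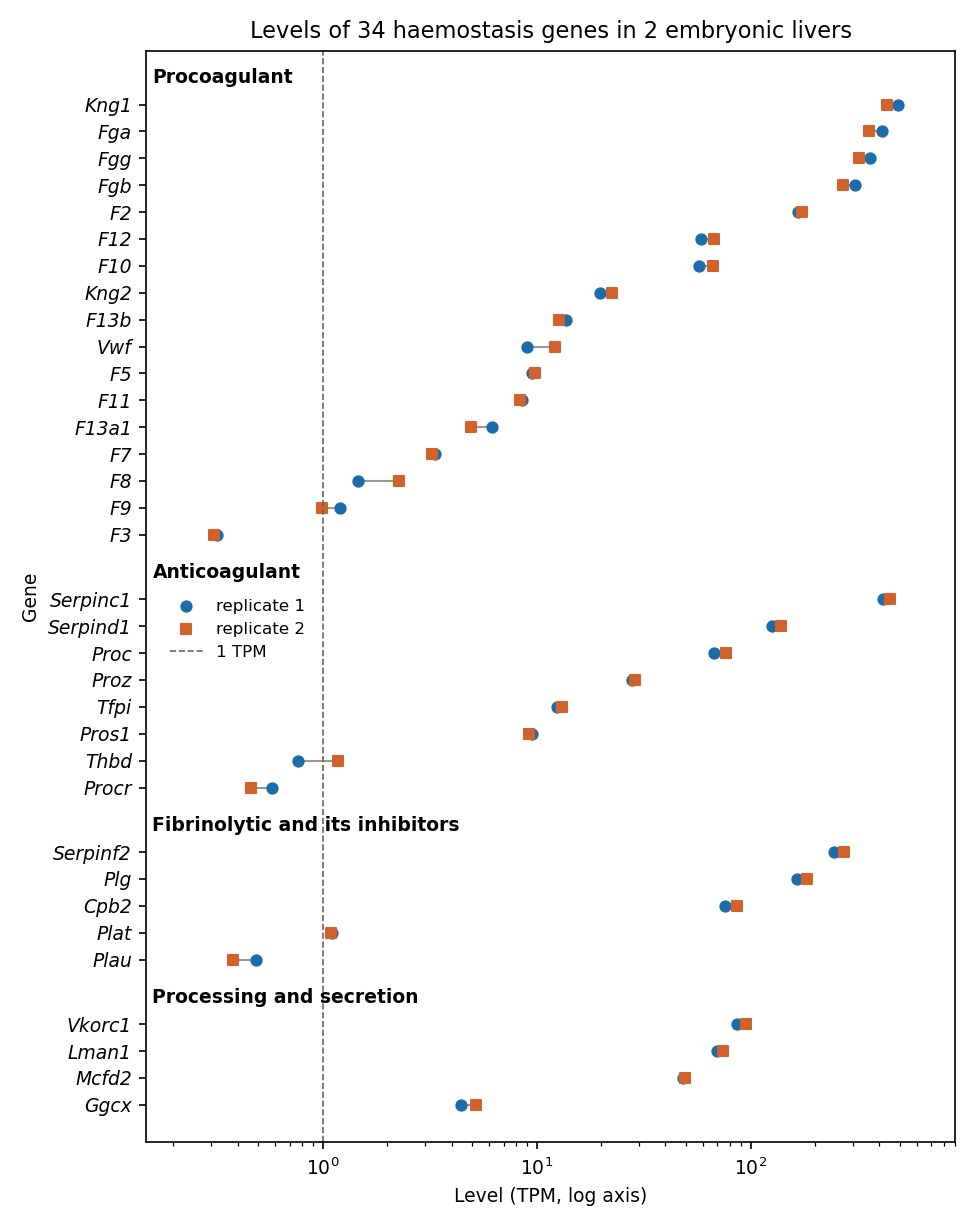
TPM of the 34 measured genes on a log axis, by role, with a blue circle for replicate 1, an orange square for replicate 2 and a grey line joining the livers; the dashed line marks 1 TPM. Each role runs from genes above 50 TPM to genes near or below 5 TPM, and the livers lie close together at nearly every gene.

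Fibrinogen is the soluble precursor of fibrin and is built from 3 chains, each from its own gene. The 3 genes lie within 42.1 kb of chromosome 3 (GRCm38): Fgg at 83007724 to 83015049, Fga at 83026076 to 83033627 and Fgb, on the opposite strand, at 83040141 to 83049863. Fga, the α chain gene, stood at 411 TPM in replicate 1 and 356 in replicate 2. Fgg, the γ chain gene, stood at 360 and 322 TPM. Fgb, the β chain gene, stood at 307 and 271 TPM. All 3 were lower in replicate 2, and in both livers the order by TPM was Fga, Fgg, Fgb.

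That order depended on how length entered. Fga was 1.34-fold and 1.31-fold above Fgb by TPM. By estimated reads it was the reverse, with 0.765 and 0.755 reads of Fga for each read of Fgb. The Fgb transcript is annotated at an effective length of 3711 nucleotides, with a coding sequence of 1443, so much of its TPM divisor is untranslated. CPM denotes reads scaled to the library's total of mouse reads. Per kilobase of coding sequence, a scale chosen after the values were seen, Fgb was highest at 891 and 753 CPM, Fgg stood at 490 and 419, and Fga at 415 and 346. On each of the 3 scales the ratios among the chains nearly repeated between the livers: the Fgg to Fgb ratio was 1.17 and 1.19 by TPM, 0.507 and 0.513 by reads, and 0.550 and 0.557 per coding kilobase. The 3 proteins are known to be assembled in equal numbers, and the RNA ratios here were not equal on any of the 3 scales.

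**Figure D2:**
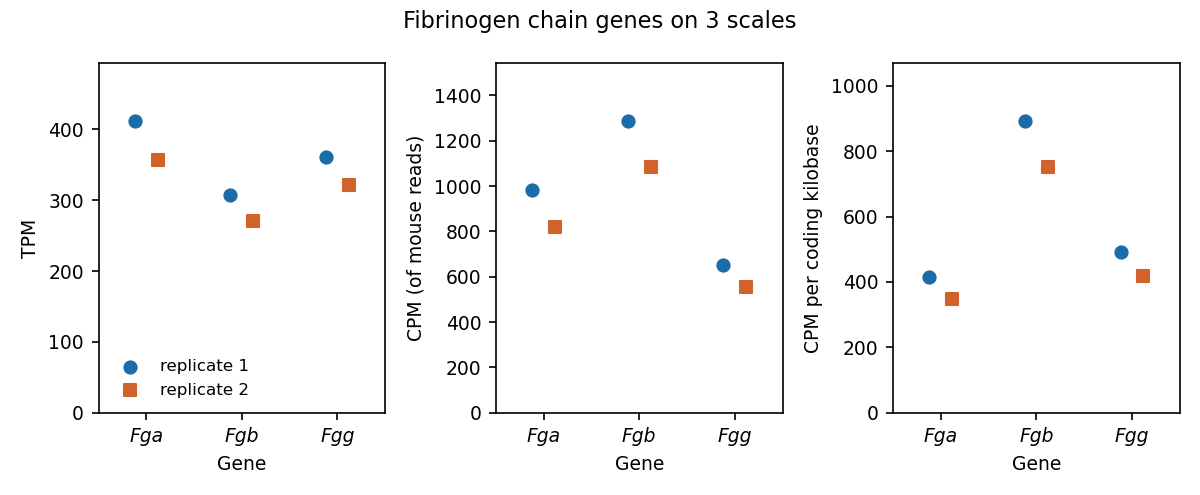
Levels of Fga, Fgb and Fgg on 3 linear scales that start at 0: TPM, CPM and CPM per kilobase of coding sequence, with a circle for replicate 1 and a square for replicate 2. Fga leads by TPM, at 411 and 356, and Fgb leads on both other scales.

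Fga and Fgg each used 2 transcripts that differ in the 3′ part of the coding sequence. Fga-201 codes for 557 codons and Fga-202, the extended α chain, for 789, and they share the first 1660 coding bases. Fga-201 held 73.1% and 70.3% of Fga TPM, and Fga-202 held 26.9% and 29.7%. Fgg-201, the major γ chain, codes for 436 codons, and Fgg-202, the γ′ form with a different and acidic tail, for 443. Fgg-201 held 85.8% and 84.8% of Fgg TPM, and Fgg-202 held 14.2% and 15.2%. The sequences below show where the forms part, as the coding strand of the GENCODE M21 models: lower case gives 15 shared coding bases, and capitals give coding bases of that form alone, up to the last base before the stop codon for Fga-201, Fgg-201 and Fgg-202 and the first 45 for Fga-202.
Fga-201: ctcgcccaacgagagGTATCGACACT
Fga-202: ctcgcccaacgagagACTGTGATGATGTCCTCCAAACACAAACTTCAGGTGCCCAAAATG
Fgg-201: gggggatccaaacagGCTGGAGACGTT
Fgg-202: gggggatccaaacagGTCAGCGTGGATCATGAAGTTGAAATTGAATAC
All 4 lie on the plus strand of chromosome 3. The 15 shared bases of the Fga forms begin at 83031965, and Fga-201 then reads on for 11 coding bases while Fga-202 adds 707. The shared bases of the Fgg forms begin at 83014293, after which Fgg-201 adds 12 coding bases and Fgg-202 adds 33.

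Kng1, which encodes kininogen, the precursor of bradykinin and the cofactor of the contact factors, had the highest mean TPM of the members, although its range over the livers overlapped that of Serpinc1. It stood at 489 TPM in replicate 1 and 433 in replicate 2, the 196th highest of the mouse genes by mean. Its neighbour Kng2, a second kininogen gene that lies on the opposite strand of chromosome 16, stood at 19.8 and 22.6 TPM. Kng1 was thus 24.7-fold and 19.2-fold above Kng2 by TPM, and 29.8-fold and 23.1-fold above it per coding kilobase. The 2 genes are similar in sequence, and reads shared between them may have been split by the counting. The livers differed in direction, Kng1 being lower and Kng2 higher in replicate 2.

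Kng1 is known to give a long and a short kininogen from 1 gene by the choice of the last exons. The 3 transcripts whose sequences follow carried nearly all of its TPM. Kng1-202, the shortest of them at 432 codons, held 69.5% and 67.0%. Kng1-203, with 480 codons, held 20.5% and 21.7%, and Kng1-201, the longest at 661 codons, held 9.90% and 10.9%. They share the first 1200 coding bases. The next sequences show the point at which they part, with 15 shared bases in lower case and the first 45 coding bases of each form in capitals.
Kng1-202: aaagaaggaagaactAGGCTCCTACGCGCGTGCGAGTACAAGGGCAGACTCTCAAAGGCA
Kng1-203: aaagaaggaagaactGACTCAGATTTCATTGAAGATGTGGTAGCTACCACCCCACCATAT
Kng1-201: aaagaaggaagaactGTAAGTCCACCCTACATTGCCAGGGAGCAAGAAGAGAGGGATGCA
The shared bases begin at 23079037 of chromosome 16, on the plus strand. The deposited models of Kng1-202 and Kng1-203 are 1985 and 1663 nucleotides long, and those of M21, from which these bases were read, are 1995 and 1827.

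Of the contact factors, F12 (factor XII) stood at 58.9 TPM in replicate 1 and 67.2 in replicate 2. F11 (factor XI) stood at 8.57 and 8.33 TPM, so that F12 was 6.88-fold and 8.07-fold above F11 by TPM. Klkb1, which lies beside F11 on the same strand of chromosome 8 (45266689 to 45294859), had no gene row of its own identifier. In the deposited transcript tables Klkb1-201 was filed under the gene row of the neighbour Cyp4v3, and it was listed at 0 reads in both livers. A second transcript, Gm45753-201 (45269671 to 45308466), has 13 exons identical to exons of Klkb1-201 in M21, of 15 in that transcript, and overlaps it by 2267 bases. The M21 model of Klkb1-201 is 5249 nucleotides long and the deposited one 2753. Gm45753-201 took 1395 and 1159 reads, or 13.9 and 16.6 TPM. How the reads of the shared exons were divided between the rows is not stated, so no level is given for Klkb1.

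The vitamin K-dependent proteases differed widely. F2, prothrombin, on chromosome 2 (91625320 to 91636414), stood at 166 TPM in replicate 1 and 175 in replicate 2. F10, factor X, stood at 57.4 and 66.5 TPM. F7, factor VII, stood at 3.34 and 3.23 TPM. F9, factor IX, was the lowest of them in both livers and stood at 1.21 and 0.99 TPM, from 133 and 76 reads. F2 was thus 137-fold and 176-fold above F9 by TPM, and 75.1-fold and 96.4-fold above it per coding kilobase. F7, F10 and Proz follow each other on 1 strand within 50 kb of chromosome 8, and F10 was 17.2-fold and 20.6-fold above F7 and 2.05-fold and 2.31-fold above Proz by TPM. Most of the F10 TPM, 67.6% and 71.1%, went to F10-205, whose annotated coding sequence of 957 bases is shorter than the 1479 bases of the longest F10 transcript. The 2 F10 transcripts whose coding sequence reaches at least 90% of the longest took 29.7% and 27.5% of F10 TPM.

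**Figure D3:**
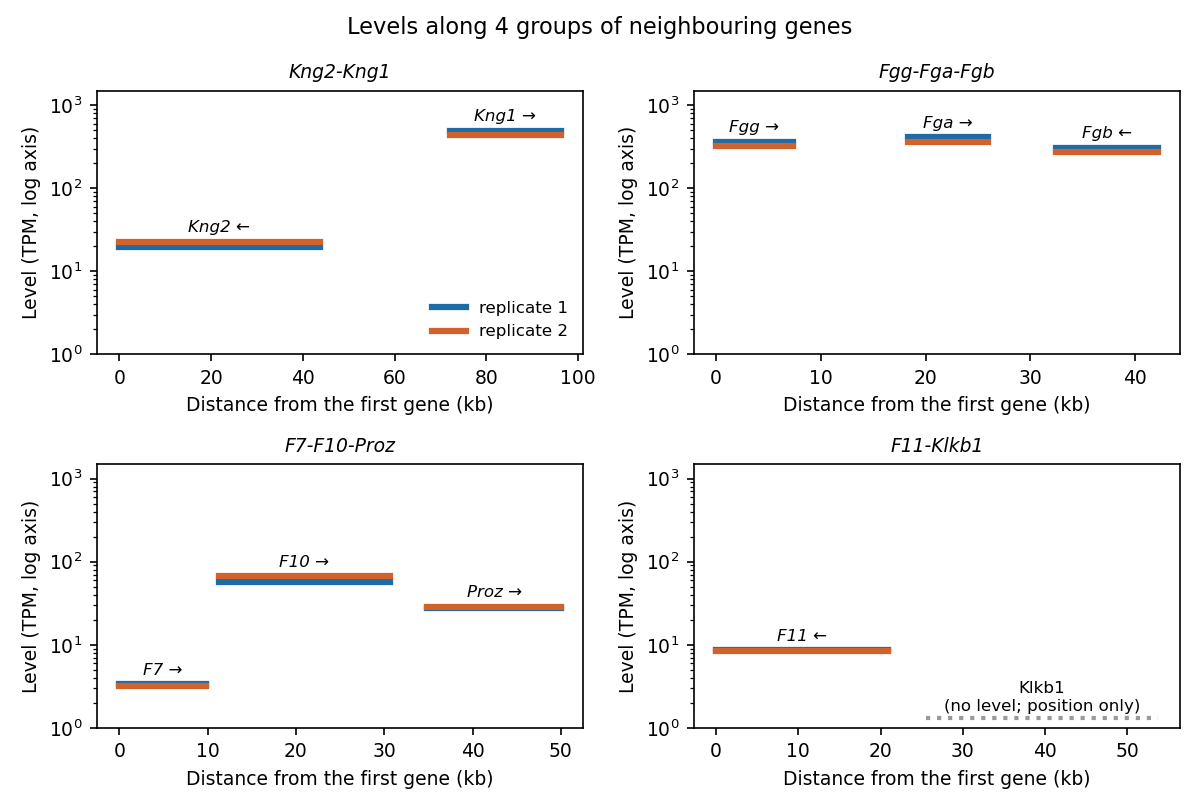
TPM on a log axis along 4 groups of neighbouring genes, with distance in kb from the start of the first gene on the horizontal axis; each bar spans a gene, blue for replicate 1 and orange for replicate 2, and arrows give the strand. The 3 fibrinogen genes lie at like levels, from 271 to 411 TPM, whereas F7 and F10 differ by 17.2-fold and 20.6-fold and Kng2 and Kng1 by 24.7-fold and 19.2-fold; the dotted bar of Klkb1 gives its position and no level.

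The remaining genes of the group encode cofactors, the subunits of the fibrin cross-linking enzyme and tissue factor. F5, the cofactor of factor X, stood at 9.48 TPM in replicate 1 and 9.80 in replicate 2. F8, the cofactor of factor IX, stood at 1.46 and 2.27 TPM, from 246 and 209 reads. Its effective length, the divisor of TPM, was 4019 and 3166 nucleotides. F8-203, a transcript of 676 nucleotides, stood at 0.28 and 1.17 TPM on 6.64 and 19.7 reads, and F8-202, of 7295 nucleotides, at 0.66 and 0.70 TPM. F13b, the carrier subunit of factor XIII, stood at 13.7 and 12.8 TPM. F13a1, its catalytic subunit, which blood cells such as macrophages and megakaryocytes are known to make, stood at 6.17 and 4.95 TPM. F3, tissue factor, was the lowest member in both livers at 0.32 and 0.31 TPM, from 24 and 16 reads.

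Vwf, the platelet-binding carrier of factor VIII made by endothelium and megakaryocytes, stood at 9.04 TPM in replicate 1 and 12.2 in replicate 2. Its TPM rested largely on fragments: Vwf-209, 456 nucleotides with no coding sequence, held 39.3% and 33.1% of TPM but 4.74% and 3.75% of reads. The 2 transcripts of 8817 nucleotides or more held 67.6% and 66.2% of Vwf reads and stood at 2.07 and 2.92 TPM. Between these 2 the estimate switched: the model ENSMUST00000001995.9 took 756 reads in replicate 1 and 147 in replicate 2, and Vwf-203 took 0.01 and 594. Their sum was 756 and 741 reads.

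Among the anticoagulant genes, Serpinc1, which encodes antithrombin, the main inhibitor of thrombin and factor X, was highest. It lies on chromosome 1 (160978585 to 161005863) and stood at 416 TPM in replicate 1 and 447 in replicate 2, second among members by mean TPM and first in replicate 2. Serpind1, heparin cofactor II, stood at 126 and 138 TPM. Both serpins were higher in replicate 2. The antithrombin level also rests on short transcripts: Serpinc1-204, of 742 nucleotides and annotated as a target of nonsense-mediated decay, held 51.6% and 50.4% of its TPM, and Serpinc1-205, of 1044 nucleotides, held 46.4% and 47.3%. Serpinc1-201, which at 4970 nucleotides carries the full coding sequence of 1395 bases, took 1.76% and 1.97% of TPM and 10.0% and 11% of reads. Per kilobase of the longest coding sequence, Serpinc1 fell from the second to the sixth place among members, at 289 and 301 CPM.

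The protein C pathway was led by its protease. Proc, protein C, which cuts the active forms of factors V and VIII, stood at 67.1 TPM in replicate 1 and 76.6 in replicate 2. Pros1, protein S, its cofactor, stood at 9.54 and 9.25 TPM, so that Proc was 7.03-fold and 8.28-fold above Pros1 by TPM and 4.73-fold and 5.57-fold per coding kilobase. The endothelial receptors of the pathway were near the floor. Thbd, thrombomodulin, stood at 0.77 and 1.18 TPM, from 117 and 124 reads. Procr, the endothelial protein C receptor, stood at 0.58 and 0.46 TPM, from 27 and 20 reads. Of the general endothelial markers, all 10 listed reached 1 TPM in both livers. They ran from Emcn at 1.46 and 1.15 TPM, a range that overlapped that of Thbd, to Egfl7 at 39.4 and 39.0 TPM. Pecam1 stood at 4.51 and 4.84 TPM.

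Proz, protein Z, a cofactor in the inhibition of factor X, stood at 28.0 TPM in replicate 1 and 28.8 in replicate 2. Tfpi, the inhibitor of tissue factor with factor VII, stood at 12.5 and 13.1 TPM. Tfpi was thus 38.9-fold and 42.4-fold above F3 by TPM, on 24 and 16 reads of F3. Among the 18 members with several transcripts and at least 5 TPM, Tfpi had the widest difference of a leading transcript between livers, Tfpi-201 holding 44.2% of its TPM in replicate 1 and 53.9% in replicate 2.

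In the fibrinolytic group the zymogen and the inhibitors were high and the activators low. Plg, plasminogen, on chromosome 17 (12378608 to 12419385), stood at 165 TPM in replicate 1 and 183 in replicate 2. Serpinf2, α2-antiplasmin, the main plasmin inhibitor, stood at 246 and 274 TPM, 1.49-fold above Plg in both livers. Cpb2, the carboxypeptidase that removes plasminogen binding sites from fibrin, stood at 76.1 and 85.9 TPM. Plat, the tissue plasminogen activator, stood at 1.10 and 1.09 TPM, and Plau, the urokinase activator, at 0.49 and 0.38 TPM. By TPM, Plg was 150-fold and 168-fold above Plat and 336-fold and 483-fold above Plau, the last ratio resting on 46 and 25 reads of Plau.

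The 4 processing genes were all at 1 TPM or more in both livers. Vkorc1, which regenerates reduced vitamin K, stood at 86.8 TPM in replicate 1 and 95.2 in replicate 2. Ggcx, the carboxylase that uses it, stood at 4.42 and 5.18 TPM, so that Vkorc1 was 19.6-fold and 18.4-fold above Ggcx by TPM. Lman1 and Mcfd2 form the cargo receptor that carries factors V and VIII out of the endoplasmic reticulum. Lman1 stood at 69.8 and 74.2 TPM and Mcfd2 at 48.1 and 49.2 TPM, both well above F5 and F8. Per coding kilobase the order of that pair turned, with Mcfd2, whose coding sequence has 435 bases, at 189 and 193 CPM and Lman1 at 114 and 118.

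By role, the procoagulant genes took 0.205% ± 0.013 (SD, n = 2) of mouse TPM, the anticoagulant genes 0.0764% ± 0.0039, the fibrinolytic genes 0.0574% ± 0.0042 and the processing genes 0.0241% ± 0.0010. The median member was at 13.2 TPM in the procoagulant group, 20.6 in the anticoagulant group, 81.0 in the fibrinolytic group and 60.3 in the processing group. The fibrinolytic group includes the inhibitors of fibrinolysis, and its median member was the inhibitor Cpb2. Counted at a mean of 100 TPM or more, there were 5 procoagulant genes, 2 anticoagulant and 2 fibrinolytic, the last being Plg and the plasmin inhibitor Serpinf2.

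Which transcript led was nearly the same in both livers. Among members that have several transcripts and reach a mean of at least 5 TPM, the leading transcript by mean TPM was first in both livers in 18 of 18 genes. It held at least 50% of the gene's TPM in both livers in 15 of them and at least 90% in 7. The median share was 78.2%, and the median difference between livers was 2.28 percentage points. Counted by reads, the leader was another transcript in Serpinc1 and Vwf, and in Vwf the leader by reads changed between the livers. Lman1 also had a short fragment, Lman1-205, of 710 nucleotides with no coding sequence, which held 34.3% and 35.9% of its TPM and 9.29% and 9.63% of its reads.

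**Figure D4:**
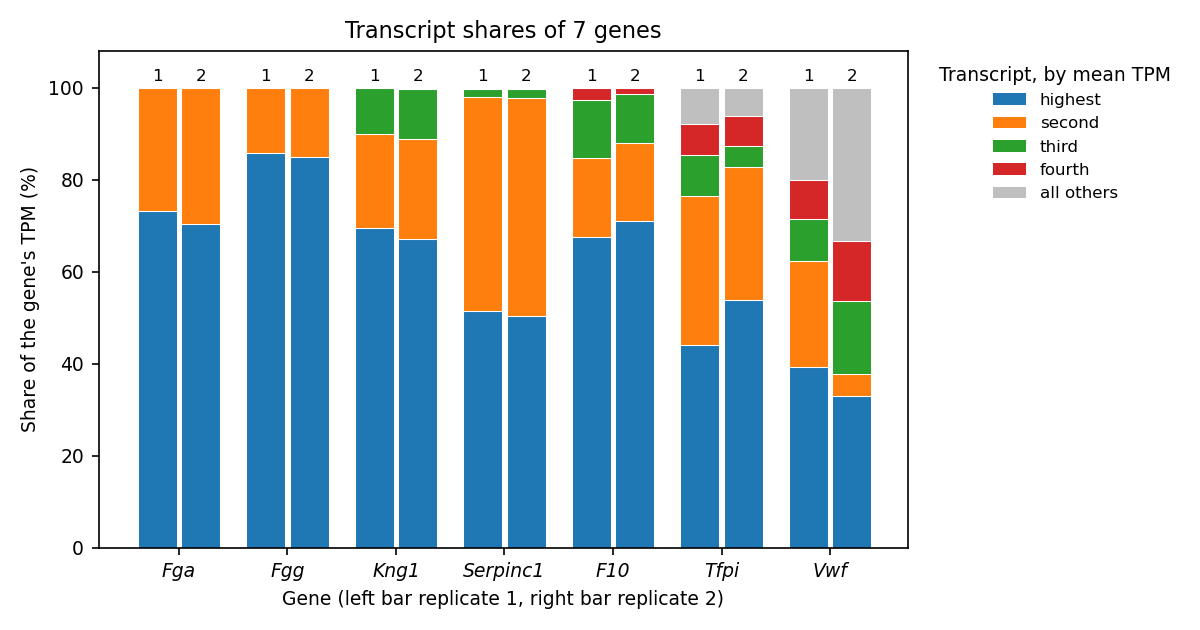
Share of each gene's TPM, in percent, held by its 4 highest transcripts and by all others, for 7 genes described in the text; the left bar is replicate 1 and the right bar replicate 2. Fga, Fgg, Kng1 and Serpinc1 repeat their shares within 2.76 percentage points for the leading transcript, Tfpi differs by 9.75, and in Vwf the lower transcripts trade places.

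Between the livers, the median absolute log2 ratio was 0.15 for the members and 0.14 for the mouse genes, both at a mean of at least 1 TPM. A 2-fold difference in TPM + 1 was found in 0 of the 21 members with a mean of at least 10 TPM and in 0.18% of the 5564 mouse genes tested the same way, which does not set the members apart. The median log2 ratio of replicate 2 to replicate 1 was 0.07 over the 30 members with a mean of at least 1 TPM and 0.10 over the 11741 mouse genes at that level. On CPM scaled by TMM factors the medians were -0.03 and -0.01, so the median member relative to the median gene was at -0.02 by TPM and -0.03 by scaled counts. By TPM 19 of the 30 were higher in replicate 2, where 72.3% of the mouse genes were, and by scaled counts 13 of the 30 were.

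The ratio of CPM was also taken, with 95% intervals for counting error only. Among the 30 members with a mean of at least 1 TPM, the interval lay above 1 in 10, where it did in 29.4% of 11739 mouse genes, and below 1 in 6, where it did in 12.5%. Over all 34 members the counts were 11 above, 6 below and 17 with intervals that included 1. By these intervals, on CPM without TMM factors, the 6 lower genes were procoagulant: Fga, Fgb, Fgg, Kng1, F13a1 and F13b. Of the 34 measured members 17 are procoagulant, and F10, F12, Vwf and Kng2, also of that role, were among the 11 above 1. The ratio was 0.834 (0.820 to 0.848) for Fga, 0.845 for Fgb, 0.855 for Fgg and 0.845 for Kng1, the 4 highest procoagulant genes. They were lower by nearly the same factor. Their share of mouse TPM went from 0.175% to 0.153%, while that of the other 30 members went from 0.191% to 0.207%.

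The genes higher in replicate 2 included inhibitors, proteases and plasminogen. The read ratio was 1.04 for Serpinc1, 1.06 for Serpind1, 1.07 for both Serpinf2 and Plg, 1.08 for Cpb2, 1.09 for Proc, 1.10 for F10 and 1.11 for F12. F2 lay between the sets at 1.01 (0.983 to 1.04). The directions of all 17 genes whose intervals left out 1 were the same on counts scaled by TMM factors. No intervals were taken on that scale, so which genes would leave out 1 there is not known. Several log2 ratios were close to 0 there: 0.0046 for Serpinc1, 0.024 for Serpind1, 0.036 for Plg and 0.045 for Serpinf2. F2 stood at -0.041 on that scale. Pros1, an anticoagulant gene whose CPM interval included 1, stood at -0.16. With 1 liver behind each value, the spread between embryos cannot be set against these ratios. Per the labels the livers were collected on different days, so embryo and day cannot be told apart.

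**Figure D5:**
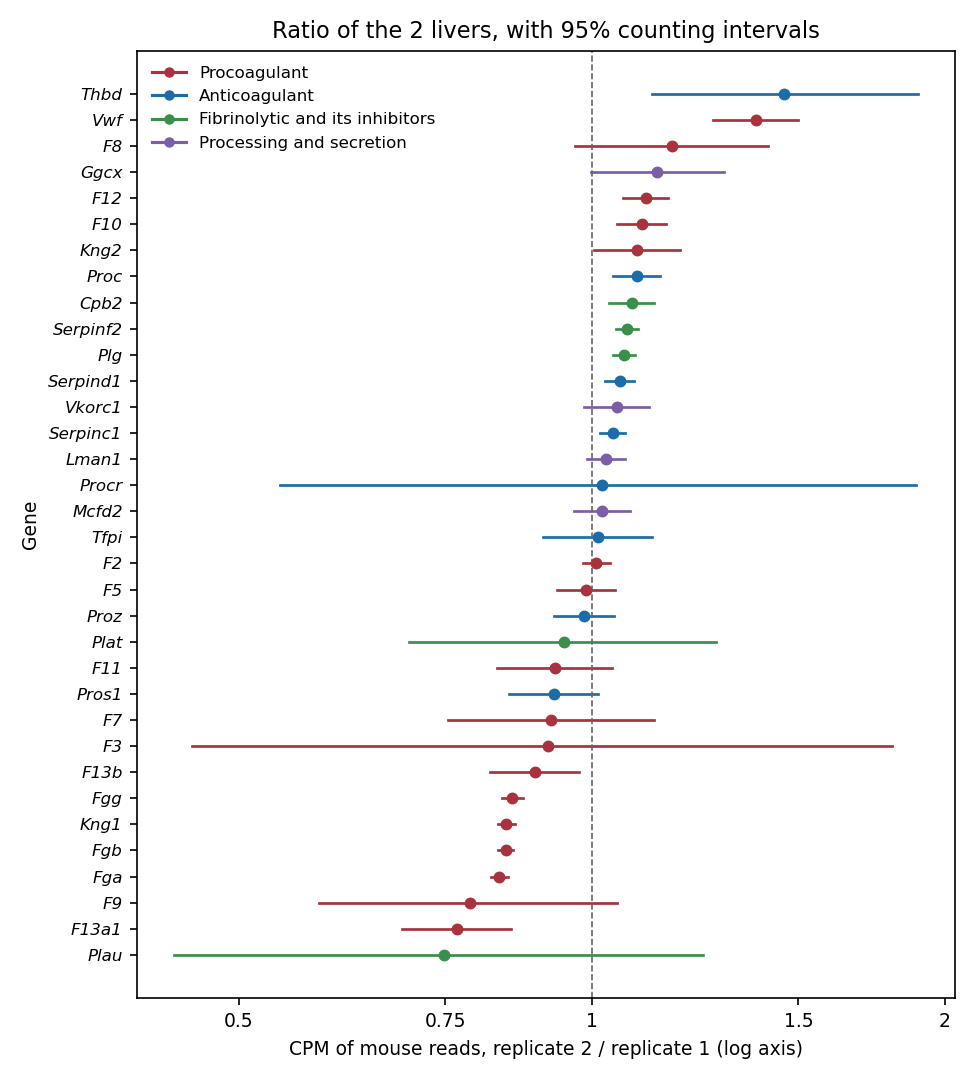
Ratio of CPM, replicate 2 over replicate 1, on a log axis for the 34 measured genes in order of their ratio; points are coloured by role and lines are 95% intervals for counting error. Fga, Fgb, Fgg and Kng1 sit together between 0.834 and 0.855 with short lines, and Thbd and Vwf are highest at 1.46 and 1.38.

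The members furthest above 1 are known from other cell types than hepatoblasts. Vwf had a read ratio of 1.38 (1.27 to 1.5) and Thbd of 1.46 (1.12 to 1.90). The markers were compared by TPM, unlike the read ratios, which are of CPM. By TPM 72.3% of the 11741 mouse genes with a mean of at least 1 TPM were higher in replicate 2, and 3214 were lower. Of the 10 megakaryocyte and platelet markers, 10 were higher in replicate 2, and their summed level went from 569 to 718 TPM. Of the 10 endothelial markers 5 were higher, with sums of 110 and 112 TPM. F13a1, at a read ratio of 0.767 (0.689 to 0.853), was lower while macrophage markers summed to 260 and 266 TPM and all 5 neutrophil markers were lower, with sums of 2514 and 1806 TPM. The hepatoblast and hepatocyte markers summed to 22079 and 23065 TPM. The part of these cell types in the differences was not tested.

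The promoters of the fibrinogen genes were read because the 3 genes lie side by side and differed together between the livers. RefSeq promoters, 250 bases before to 50 after a gene start on GRCm38.p6, matched 27 of the 35 members. The letters GTTAAT, one arm of the palindrome bound by the liver factor HNF1, or ATTAAC on the other strand, occurred in 5 of the 27: F13b, F2, Fga, Fgb and Proz. They occurred in 7.1% of the 32851 promoters in the table. In Fga the match began 43 bases before the RefSeq start and in Fgb 29 bases before it, and Fgg had none in its window. The 250 bases before the RefSeq start of Fga end at 83026152, past the M21 start at 83026076. The Fga match thus lies within the M21 gene. The 250 bases before the start are given for Fgb, on the minus strand at chr3:83049864-83050113, and for Fgg, on the plus strand at chr3:83007474-83007723, each 5′ to 3′ on the gene's strand with the match in capitals.
Fgb: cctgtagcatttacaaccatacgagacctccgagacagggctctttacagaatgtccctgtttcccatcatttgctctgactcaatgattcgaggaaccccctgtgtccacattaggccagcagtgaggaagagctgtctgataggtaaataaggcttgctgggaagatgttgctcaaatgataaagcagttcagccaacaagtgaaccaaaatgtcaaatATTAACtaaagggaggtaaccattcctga
Fgg: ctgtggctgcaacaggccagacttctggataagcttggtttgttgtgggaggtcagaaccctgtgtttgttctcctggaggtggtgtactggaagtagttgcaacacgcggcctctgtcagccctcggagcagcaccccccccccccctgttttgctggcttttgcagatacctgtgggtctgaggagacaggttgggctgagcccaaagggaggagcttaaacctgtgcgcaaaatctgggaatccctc
The absence of these letters in the Fgg window says only that they are not in those bases.

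Other motifs were searched on both strands in the same windows. CAAAGTCCA, a site of HNF4, was in 0 of the 27 members and 0.475% of all promoters, and TTGCGCAA, a C/EBP site, in 0 and 0.183%. The letters AGATAA, known from factors of erythroid and megakaryocyte genes, were in 2 members, Serpinf2 and Tfpi, and 11.2% of promoters. The letters TATAAA, known from core promoters, were in 3 members, F3, Klkb1 and Tfpi, and 13.6% of promoters. AGGAAG, an ETS site, was in 7 members and 35.4% of promoters. A match is a description of the letters and not a bound site. RNA of the factors was present at low to moderate levels: of 12 liver transcription factors 9 were at 1 TPM or more in both livers, with Foxa3 at 21.9 and 21.3 TPM, Cebpb at 10.4 and 10.9, Hnf4a at 9.42 and 8.65, and Foxa1 lowest by mean at 0.52 and 0.92.

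Other genes of the pathway were taken from 5 further lists, and with the liver factors these 6 lists held 58 genes, all measured, of which 44 were at 1 TPM or more in both livers. Of 13 other inhibitors 9 were detected. Apoh, a phospholipid-binding plasma protein, stood at 234 and 237 TPM, Pzp, a broad protease trap, at 116 and 117, and Serping1, the inhibitor of C1 and of the contact proteases, at 50.2 and 37.2. Mug1, another protease trap, was at 0.02 and 0 TPM, and no member of that list was lower.

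Of 11 receptors and binding proteins 10 were detected. Anxa2 and S100a10, which together bind plasminogen on cell surfaces, stood at 81.4 and 72.5 TPM and at 47.2 and 43.5 TPM. F2r, the main thrombin receptor of the family, stood at 21.1 and 25.2 TPM, and F2rl1 was lowest at 0.24 and 0.54.

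All 9 other genes of vitamin K reduction, sulfation and secretion were detected, with P4hb, a folding enzyme of the endoplasmic reticulum, at 419 and 446 TPM and Furin, a proprotein protease, lowest at 3.15 and 3.71. Of 7 other vitamin K-dependent proteins 3 were detected, with Prrg2 highest at 4.82 and 5.60 TPM and Bglap, osteocalcin, lowest by mean at 0.07 and 0. Of 6 further plasma proteases and fibrinogen relatives 4 were detected: Hgfac, the activator of hepatocyte growth factor, stood at 35.4 and 39.3 TPM, and Adamts13, which trims von Willebrand factor, was lowest by mean at 0.72 and 0.74.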

How the data were processed

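Total RNA of 2 livers was sequenced, 1 library each. For each liver the authors deposited 1 table of genes and 1 of transcripts; per the deposited notes the build was mm10 and the annotation GENCODE M4. Aligner, counting program and settings: not given in the sources used here. Per gene and transcript, expected counts (estimated reads, not normalized) and TPM, scaled to the library total, were deposited, and posterior mean TPM and a posterior SD score of each count come from the same tables, per the file headers. Whether counting used strand is not stated, so overlapping genes can share reads.

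Symbols, coordinates and coding sequences came from GENCODE M21 by unversioned identifier, with a symbol for 42462 of 43346 mouse rows. Spike-ins and rows with no mouse identifier were left out of totals. Detection meant 1 TPM or more. Ratios between livers were log2 of TPM with a pseudocount of 1, which understates differences of low genes; the 2-fold count was taken over genes averaging 10 TPM or above with no fewer than 50 summed reads. Intervals of read ratios at the 95% level are binomial and cover counting error only, since amplified reads are not independent molecules. edgeR 4.0.16 gave TMM factors and no test. Reads per coding kilobase used each gene's longest M21 coding sequence. Ratios and intervals were tested on simulated counts that held counting error only. That setting cannot show how the intervals behave where libraries vary beyond counting error. The libraries differed by a chi-square of 10.4 per degree of freedom, so they were not copies. With 1 group, no p-value was computed.

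All 35 genes are described. The members and lists were chosen with earlier results of these data known. From each further list the highest genes and the lowest were named; Egfl7, Emcn, Pecam1 and the transcripts printed were chosen after values were seen. Alternatives were posterior mean TPM, TPM rescaled without globin genes or without mitochondrial and rRNA genes, counts with TMM factors, other thresholds, filters and pseudocounts, and each liver alone. Python 3.11.15 with pandas 2.3.3 and scipy 1.17.1 was used.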

Additional observations from a re-analysis of the deposited data

How the results depend on the processing

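No paired analysis was possible because there was 1 group. The number of detected members, 29, ranged from 24 at a threshold of 5 TPM to 31 at 0.5 TPM. No member passed 2-fold under any of the 6 alternatives run. The scale of the shares moved with what was counted. Without globin genes in the total, the median member rose from 24.8 to 40.6 TPM and the members' share from 0.363% to 0.595%; the share was 0.357% by posterior mean TPM, 0.375% without mitochondrial and rRNA genes, and 0.695% of reads. Without Kng1, Fga, Fgb and Fgg, a choice made after the data were seen, it was 0.199%. From 1 liver alone the median member was at 23.9 to 25.7 TPM and the share at 0.360% to 0.366%.

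The median log2 ratio of the members, 0.074, was 0.033 without globin genes and -0.031 on counts with TMM factors. The fibrinogen ratios turned with the length used. As mean log2, Fga over Fgb was 0.41 by TPM, -0.40 by reads and -1.11 per coding kilobase, and Fgg over Fgb was 0.24, -0.97 and -0.85. Fga over Fgg was 0.17, 0.58 and -0.26. The coding scale was chosen after the data were seen and gave 25 of 34 members another place in the order. The alternatives' own divisors differ, and which is nearest to molecules was not tested. The median leading share, 78.2%, was 81.0% by reads and 77.5% by posterior mean TPM, and from 1 liver alone 77.2% to 78.1%. On counts with TMM factors 17 of 34 single ratios moved beyond their counting interval and 0 of those with an interval away from 1 changed direction. Depth limits F3, Plau, Procr, F9, Plat and Thbd, whose reads numbered 16 to 133, and so the printed ratios to Plat, Plau, F9 and F3 and the liver ratio of Thbd.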

Other observations

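Several acute-phase genes, plasma proteins whose RNA in adult liver is known to rise with inflammation as that of fibrinogen does, also differed between these livers. They were chosen after values were seen, and their part in the fibrinogen difference was not tested. Hp, haptoglobin, stood at 41.0 TPM in replicate 1 and 22.9 in replicate 2, from 2132 and 826 reads. Hamp, hepcidin, stood at 25.1 and 10.1 TPM, Itih4 at 99.7 and 72.2, and Apcs, serum amyloid P, at 52.5 and 39.8. These 4 were lower in replicate 2, as Fga, Fgb, Fgg and Kng1 were. Crp, C-reactive protein, at 31.8 and 32.7 TPM and Lbp, the lipopolysaccharide-binding protein, at 24.6 and 26.5 TPM were not. Orm1, Saa1 and Saa2, classical acute-phase genes of the mouse, had at most 2 reads in either liver.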
